A study of Rattus norvegicus with 35 samples.

Results

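The 8 transcription factor genes followed here answer growth and stress signals, and were measured in neonatal rat cardiac cells: the AP-1 subunits Fos, Fosl1, Jun, Junb and Jund, and Egr1, Myc and Nr4a1. Every probe-set of the Affymetrix rat array with one of these as its single gene symbol was taken, which gave 19 of the 8740 probe-sets tested, for 8 of 4736 genes: 3 for Fos, 1 for Fosl1, 4 for Jun, 2 for Junb, 1 for Jund, 4 for Egr1, 2 for Myc and 2 for Nr4a1. Probe-sets that share an accession (X06769 for Fos, Y00396 for Myc, U17254 for Nr4a1) read the same target and are not independent. Other probe-sets of the same gene are not independent either, so that shares and medians over the 19 count some genes more than once. The study compared the response of ventricular cells to ultraviolet light (UV, 10 J/m2), ionising radiation (IR, 8.5 Gy) and cyclic stretch (mechanical stress, MS), in cells enriched for cardiac myocytes (CM) and in cultures of fibroblasts (FB), with RNA taken 24 h after irradiation or after 24 h of stretch. Controls were sham-irradiated, or kept on the same collagen I coated flexible plates without stretch. There were 3 arrays in each of the 12 groups except the UV controls of CM, which had 2, so that the third UV-treated CM array had no partner and did not enter the change given for CM after UV. The myocytes were enriched by pre-plating, not purified. For UV and IR, CM-enriched cultures were further trypsinised and elutriated after treatment, into CM-enriched fractions. For MS they were not elutriated, and the fibroblasts had been subcultured. A short name such as CM UV stands for a population and a stressor.

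AP-1 is a dimer of a Jun protein with a Fos, another Jun or an ATF protein, and binds the sequence TGANTCA in the control regions of genes for proliferation, inflammation and matrix turnover. Fos, Jun, Junb, Egr1, Nr4a1 and Myc belong to the immediate early genes, which are transcribed within minutes of a stimulus without new protein synthesis and whose messengers are short-lived. Fosl1 (Fra-1) is itself an AP-1 target and follows later. In the heart, early induction of Fos, Jun, Egr1 and Myc is a classic sign of pressure load and of growth stimulation of myocytes. All samples described here were taken at 24 h, long after the first wave of such a response.

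The sequences just upstream of the transcription start are shown because these genes are known to be switched by sites there. Of the 8 genes, 5 were matched by symbol in the RefSeq promoter table (build GRCr8): Fosl1 (chr1:212183635-212183884, plus strand), Egr1 (chr18:26736828-26737077, plus strand), Junb (chr19:40080876-40081125, plus strand), Jund (chr16:18769772-18770021, minus strand) and Nr4a1 (chr7:134259888-134260137, plus strand). Each run below is the 250 bases before the start, 5′ to 3′ on the strand of the gene, and capitals mark matches to any of 6 motifs searched on both strands: the CArG box bound by SRF, the AP-1 site TGANTCA, the cyclic AMP element (CRE) TGACGTCA, its variant TGCGTCA, the EGR site GCGNGGGCG and the TATA box TATAAA.
Fosl1: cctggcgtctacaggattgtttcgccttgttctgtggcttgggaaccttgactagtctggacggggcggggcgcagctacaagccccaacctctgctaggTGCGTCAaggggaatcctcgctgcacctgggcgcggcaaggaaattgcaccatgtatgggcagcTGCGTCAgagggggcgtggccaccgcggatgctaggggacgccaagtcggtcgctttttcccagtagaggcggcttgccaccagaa
Egr1: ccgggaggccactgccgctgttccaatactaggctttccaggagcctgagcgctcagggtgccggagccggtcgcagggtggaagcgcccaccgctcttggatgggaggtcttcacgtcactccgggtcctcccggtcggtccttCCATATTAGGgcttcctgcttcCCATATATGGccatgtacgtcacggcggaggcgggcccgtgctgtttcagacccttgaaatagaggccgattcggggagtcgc
Junb: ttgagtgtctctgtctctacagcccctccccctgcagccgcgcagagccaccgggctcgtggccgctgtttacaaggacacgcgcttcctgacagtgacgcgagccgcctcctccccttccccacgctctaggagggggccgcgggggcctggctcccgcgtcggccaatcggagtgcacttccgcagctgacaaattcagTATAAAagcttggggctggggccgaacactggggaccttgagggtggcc
Jund: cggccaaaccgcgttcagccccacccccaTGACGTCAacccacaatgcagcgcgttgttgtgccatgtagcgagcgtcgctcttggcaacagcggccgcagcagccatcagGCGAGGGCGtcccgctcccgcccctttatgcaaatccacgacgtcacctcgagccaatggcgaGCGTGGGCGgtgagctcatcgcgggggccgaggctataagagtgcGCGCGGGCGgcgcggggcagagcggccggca
Nr4a1: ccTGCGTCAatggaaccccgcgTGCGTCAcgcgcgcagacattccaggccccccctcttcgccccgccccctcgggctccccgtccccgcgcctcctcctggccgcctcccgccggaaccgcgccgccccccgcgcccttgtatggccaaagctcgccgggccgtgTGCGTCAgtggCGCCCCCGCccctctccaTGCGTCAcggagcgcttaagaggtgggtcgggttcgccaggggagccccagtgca
Egr1 held 2 CArG boxes, at 105 to 96 and 83 to 74 bases before the start. A CArG box was found in 1.5% of the 33465 upstream windows of this length in the table. TGCGTCA occurred 4 times in Nr4a1 and 2 times in Fosl1, and 1.66% of all windows had at least 1 match. This motif was added after these sequences were seen, so that its presence here was known beforehand and the share is no test of it. Jund held 1 TGACGTCA (1.59% of all windows) and 3 matches to GCGNGGGCG (4.29%), a motif that Nr4a1 held as 1 match. Junb held only the TATA box, 49 to 44 bases before the start (12.9% of all windows), and TGANTCA (6.34% of all windows) was in none of the 5. No match of one motif overlapped that of another. These are matches of letters only, and binding was not measured.

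Intensities were brought to a common scale with a floor of 6.88, below which values have no order. The 19 probe-sets ranged in brightness from Fosl1, at the 27.7th percentile of all probe-sets, to Egr1 AF023087_s_at at the 95.2nd. Fosl1 was at the floor on 14 of 35 arrays and Jun rc_AA944014_at on 3, and the other 17 were above it on every array. Levels are compared here between samples and never between probe-sets. Summed over 11 myocyte markers, CM arrays had 36902 to 56939 units and FB arrays 3057 to 23782. Summed over 10 fibroblast markers, CM arrays had 5964 to 21090 units in the UV and IR experiments but 29610 to 36157 in the MS experiments. FB arrays had 28688 to 38797, and those of the MS experiments 35280 to 38042. The paper gives its lowest share of myocytes for the CM cultures of the MS experiments, which were not elutriated. The FB cultures thus held myocyte transcripts, and their sum differed up to several-fold between experiments, while CM samples held fibroblast transcripts. Summed over 4 endothelial markers, CM arrays had 150 to 1774 units and FB arrays 77 to 124. Of these 4, 2 (Pecam1 and Kdr) were called higher in CM than in FB controls in each set of experiments. The part of this in the control levels of the genes followed here was not tested. Treated CM IR array 3 had the highest 3′ to 5′ signal ratios, 1.48 for GAPDH and 2.33 for beta-actin, against 0.846 to 1.16 and 0.907 to 2.05 on the other arrays.

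Experiment 3 of the irradiated fibroblasts stood apart, in its treated and in its control array alike. Relative to experiments 1 and 2 of the same group, Fosl1 was higher by 4.12 on the treated and by 3.71 on the control array (log2), with 135 units on treated array 3 and 89.9 on control array 3 against 6.88 to 8.71 on the other 4 FB IR arrays. Junb was higher by 2.20 and 2.35 (rc_AA891041_at), with 846 units treated and 754 control against 129 to 203 elsewhere in FB IR. Jund was higher by 1.48 and 1.13. Egr1 was higher by 1.05 to 1.90 on the treated and by 0.98 to 1.89 on the control array over its 4 probe-sets, and Jun X17163cds_s_at by 2.71 and 2.05. Fos was not: X06769cds_g_at lay at -0.01 on the treated and 0.01 on the control array, X03347cds_g_at at -0.55 and -0.81, and X06769cds_at at 0.59 and -2.22. The difference was not limited to these genes, as 424 of all probe-sets (4.85%) were over 1 log2 unit higher on both arrays of this experiment and 339 (3.88%) lower. Spearman correlations of array 3 with the other 2 arrays of its group were 0.922 to 0.930, against 0.945 to 0.979 for all other pairs within groups. Without these arrays Egr1 U75398_s_at lost its call for UV minus IR in FB, and Fos X03347cds_g_at that for control levels. No member was called for FB IR, or for the population difference in response to IR, with or without them.

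**Figure D1:**
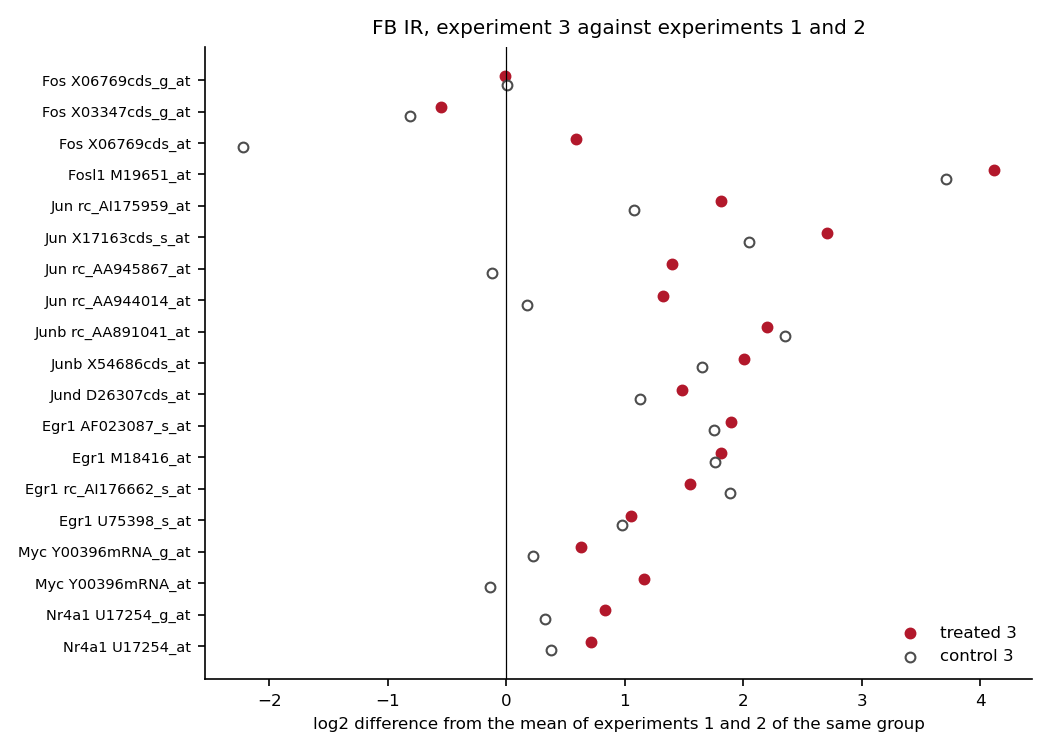
Log2 difference of treated array 3 (filled) and control array 3 (open) of the fibroblasts given IR from the mean of experiments 1 and 2 of the same group, for all 19 probe-sets. Fosl1, Junb, Jund, Egr1 and 2 of the 4 Jun probe-sets lie well above 0 on both arrays, from 0.98 for Egr1 U75398_s_at to 4.12 for Fosl1, and Fos does not.

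**Figure D2:**
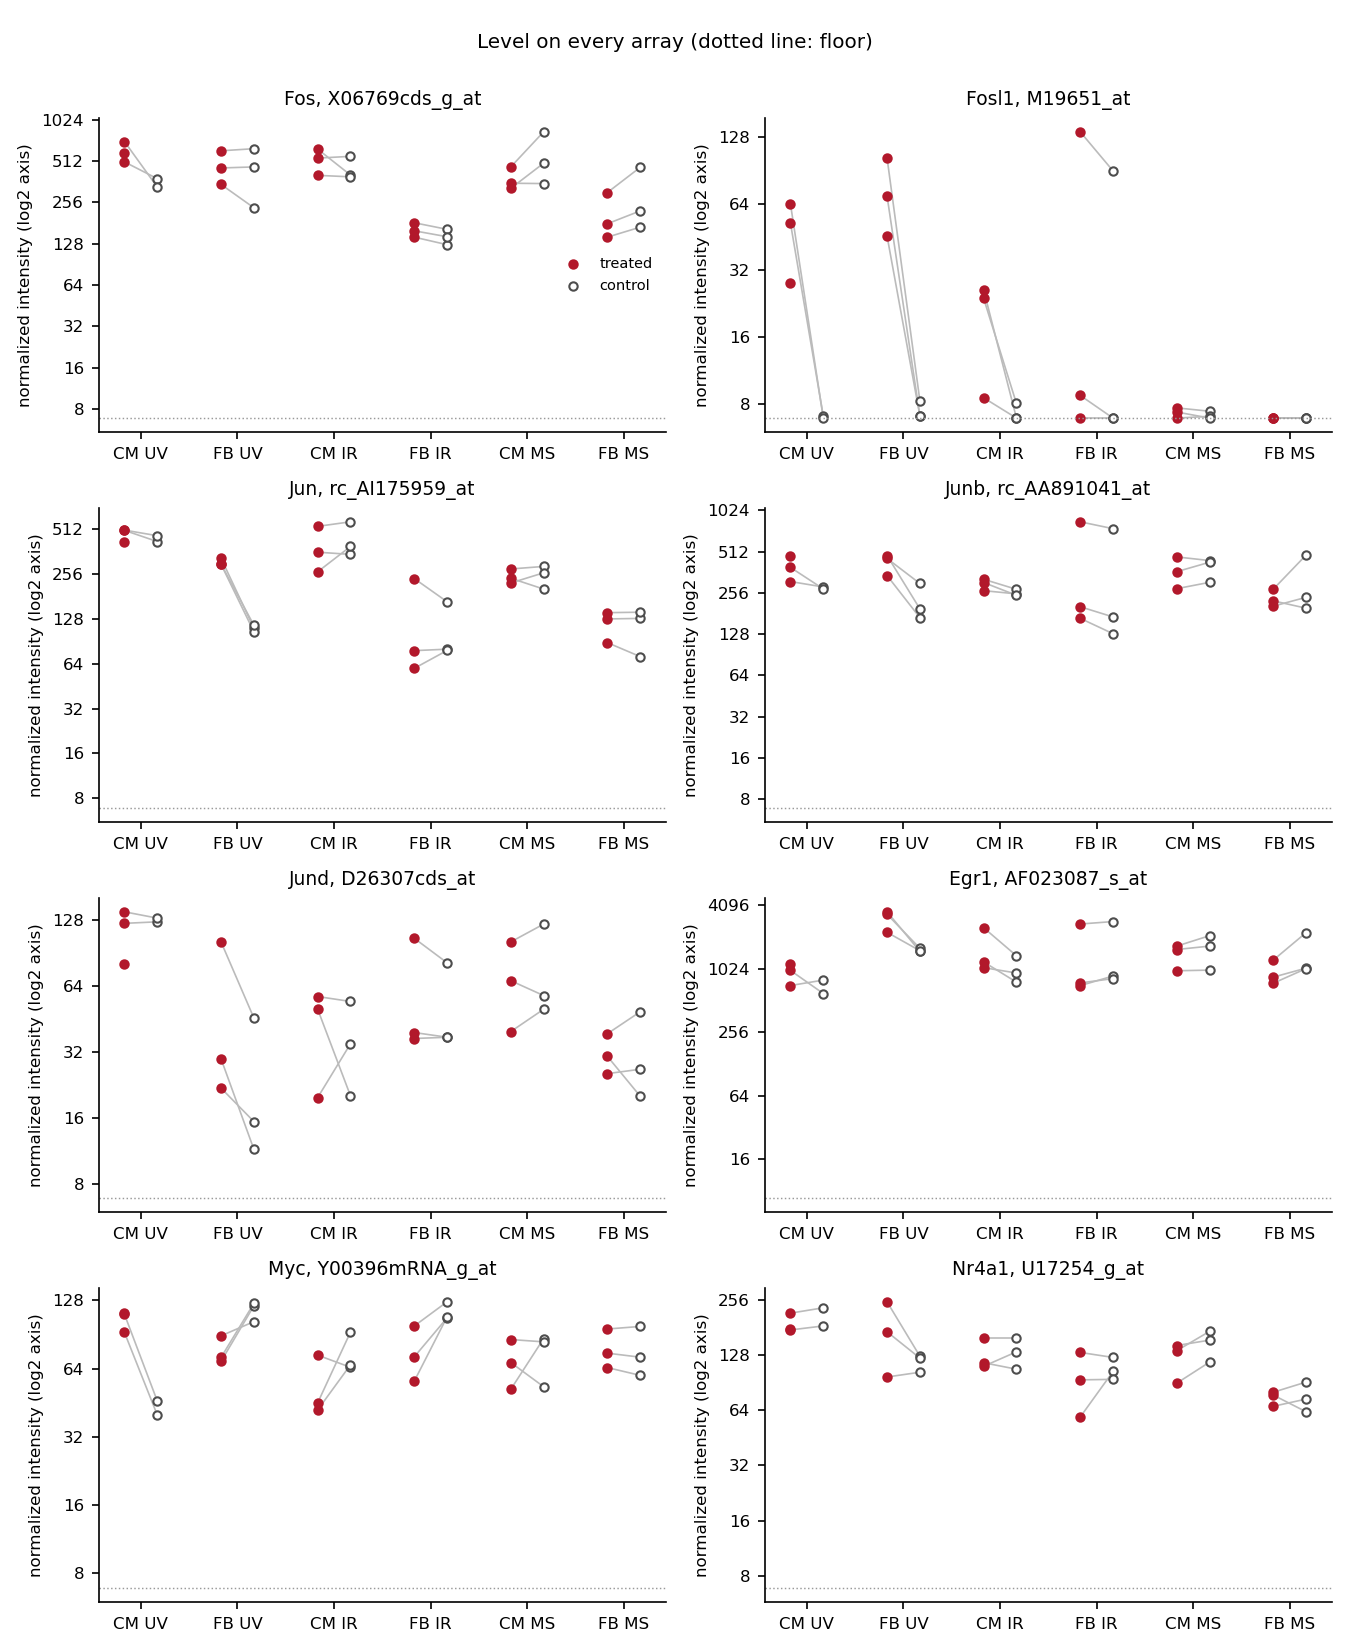
Normalized intensity (log2 axis, dotted line at the floor of 6.88) on every array for the brightest probe-set of each gene, by population and stressor, with treated arrays filled and left of control arrays, open, and lines joining the arrays of a numbered experiment. After UV Fosl1 stands well above the floor in CM and FB, Jun and Egr1 stand clear of their controls in FB UV, and Myc is higher than control in CM UV but lower in FB UV.

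Most calls among these genes were made in fibroblasts after UV. Of the 19 probe-sets, 11 were higher and 1 was lower at an adjusted p under 0.05, which is 63.2%, where 22.9% of all probe-sets were called (11.7% higher and 11.2% lower). The median change of the 19 was 0.96 on the log2 scale, beside 0 for all probe-sets. By gene, where at least 50% of its probe-sets must pass, Fosl1, Jun, Junb, Jund and Egr1 were up-regulated and Myc was down-regulated, while Fos and Nr4a1 did not pass (13.9% of all genes were higher and 13% lower). Treated and control arrays did not overlap for 11 probe-sets that were higher (15.9% of all probe-sets) and 2 that were lower (13.9%).

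Fosl1, a Fos-related partner of Jun, rose strongly after UV. It had 103, 45.7 and 69.3 units on UV-treated FB arrays and 8.24, 7.05 and 7.04 on control arrays. All treated arrays stood far above the controls, which lay just over the floor, and the change was 3.22 (SE 0.25, adjusted p = 1.57e-06). Its size depends on the floor: with a floor at the 40th percentile it was 1.49, still called (adjusted p = 3.76e-05), and below Jun X17163cds_s_at at 2.32.

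Jun, the central AP-1 subunit and target of the JNK kinases, was called in 3 of its 4 probe-sets. Probe-set rc_AI175959_at had 327, 298 and 299 units after UV against 111, 105 and 116 in controls, a tight rise of 1.47 (SE 0.15, adjusted p = 1.83e-05). Probe-set X17163cds_s_at had 147, 141 and 148 units against 40.4, 21.5 and 19.2, a change of 2.51 (SE 0.38, adjusted p = 0.000366). In both, the treated arrays agreed closely with each other and did not overlap the controls. The third, rc_AA945867_at, rose by 0.89 (adjusted p = 0.0356), and the dim rc_AA944014_at changed by 0.98 (SE 0.52, adjusted p = 0.224), with 1 control array at the floor.

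Junb, a Jun relative with weaker activating power, had 480, 343 and 457 units in treated against 196, 169 and 300 in control fibroblasts (rc_AA891041_at), a rise of 0.98 (SE 0.16, adjusted p = 0.00074). Its other probe-set rose by 0.87 (adjusted p = 0.0309). Jund, the Jun relative that is usually expressed without a stimulus, had 21.9, 29.8 and 102 units after UV against 15.4, 11.5 and 45.8 in controls. The groups overlapped, but within each experiment the treated array was the higher one, by a mean of 1.01 (SE 0.32, adjusted p = 0.0358). Fos, the classic partner of Jun, showed no such pattern: X06769cds_g_at had 346, 456 and 608 units against 234, 464 and 630, with overlapping groups and a change of 0.16 (adjusted p = 0.667). The other Fos probe-sets changed by 0.50 and 0.29 and were not called.

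Egr1, a zinc finger factor of the immediate early class, was called in all 4 of its probe-sets. AF023087_s_at had 3550, 3370 and 2270 units in UV-treated against 1500, 1600 and 1520 in control fibroblasts. The treated arrays all lay above the narrow range of the controls, by 0.96 (SE 0.18, adjusted p = 0.00168). The other 3 probe-sets rose by 1.0 to 1.33 (adjusted p = 0.000329 to 0.00373). Nr4a1 (Nur77), an orphan nuclear receptor, had 249, 97 and 171 units against 126, 103 and 123 (U17254_g_at). One treated array lay below every control, and the change of 0.45 was not called (adjusted p = 0.13). Myc, which drives growth and ribosome production, moved the other way: Y00396mRNA_at had 92.4, 40.9 and 59.1 units against 114, 111 and 97.5, a change of -0.82 (SE 0.27, adjusted p = 0.0482), and Y00396mRNA_g_at had 89.2, 68.8 and 71.6 against 103, 121 and 124 (-0.60, adjusted p = 0.086). Neither Myc probe-set overlapped between the groups.

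Without a block for the experiment 5 of these 12 probe-sets remained called (Fosl1, Jun rc_AI175959_at and X17163cds_s_at, Egr1 rc_AI176662_s_at and U75398_s_at), and with only the 6 FB UV arrays in the fit Fosl1 and Jun rc_AI175959_at did. Leaving out 1 experiment ended the call of Jun rc_AA945867_at (experiment 1, 2 or 3), Junb X54686cds_at (1 or 3), and Jund and Myc Y00396mRNA_at (2 or 3). The myocyte marker sum was 6800 to 9024 units on UV-treated FB arrays and 17814 to 21083 on controls, with 10 of 11 markers called lower, and 3 of 4 smooth muscle markers (summed level 3217 to 4506 units treated and 6584 to 7331 control) and 3 of 10 fibroblast markers (28688 to 34034 and 35791 to 38797) were called lower too. Of 6 macrophage and leukocyte markers 2 were called higher, Cd14 and Csf1r (289 to 341 and 199 to 248). No myocyte marker was at the floor on any FB UV control array, and the part of these shifts in the changes of the 8 genes was not tested. In RNA from a mixed culture, fewer cells of a type and less RNA per cell cannot be told apart.

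**Figure D3:**
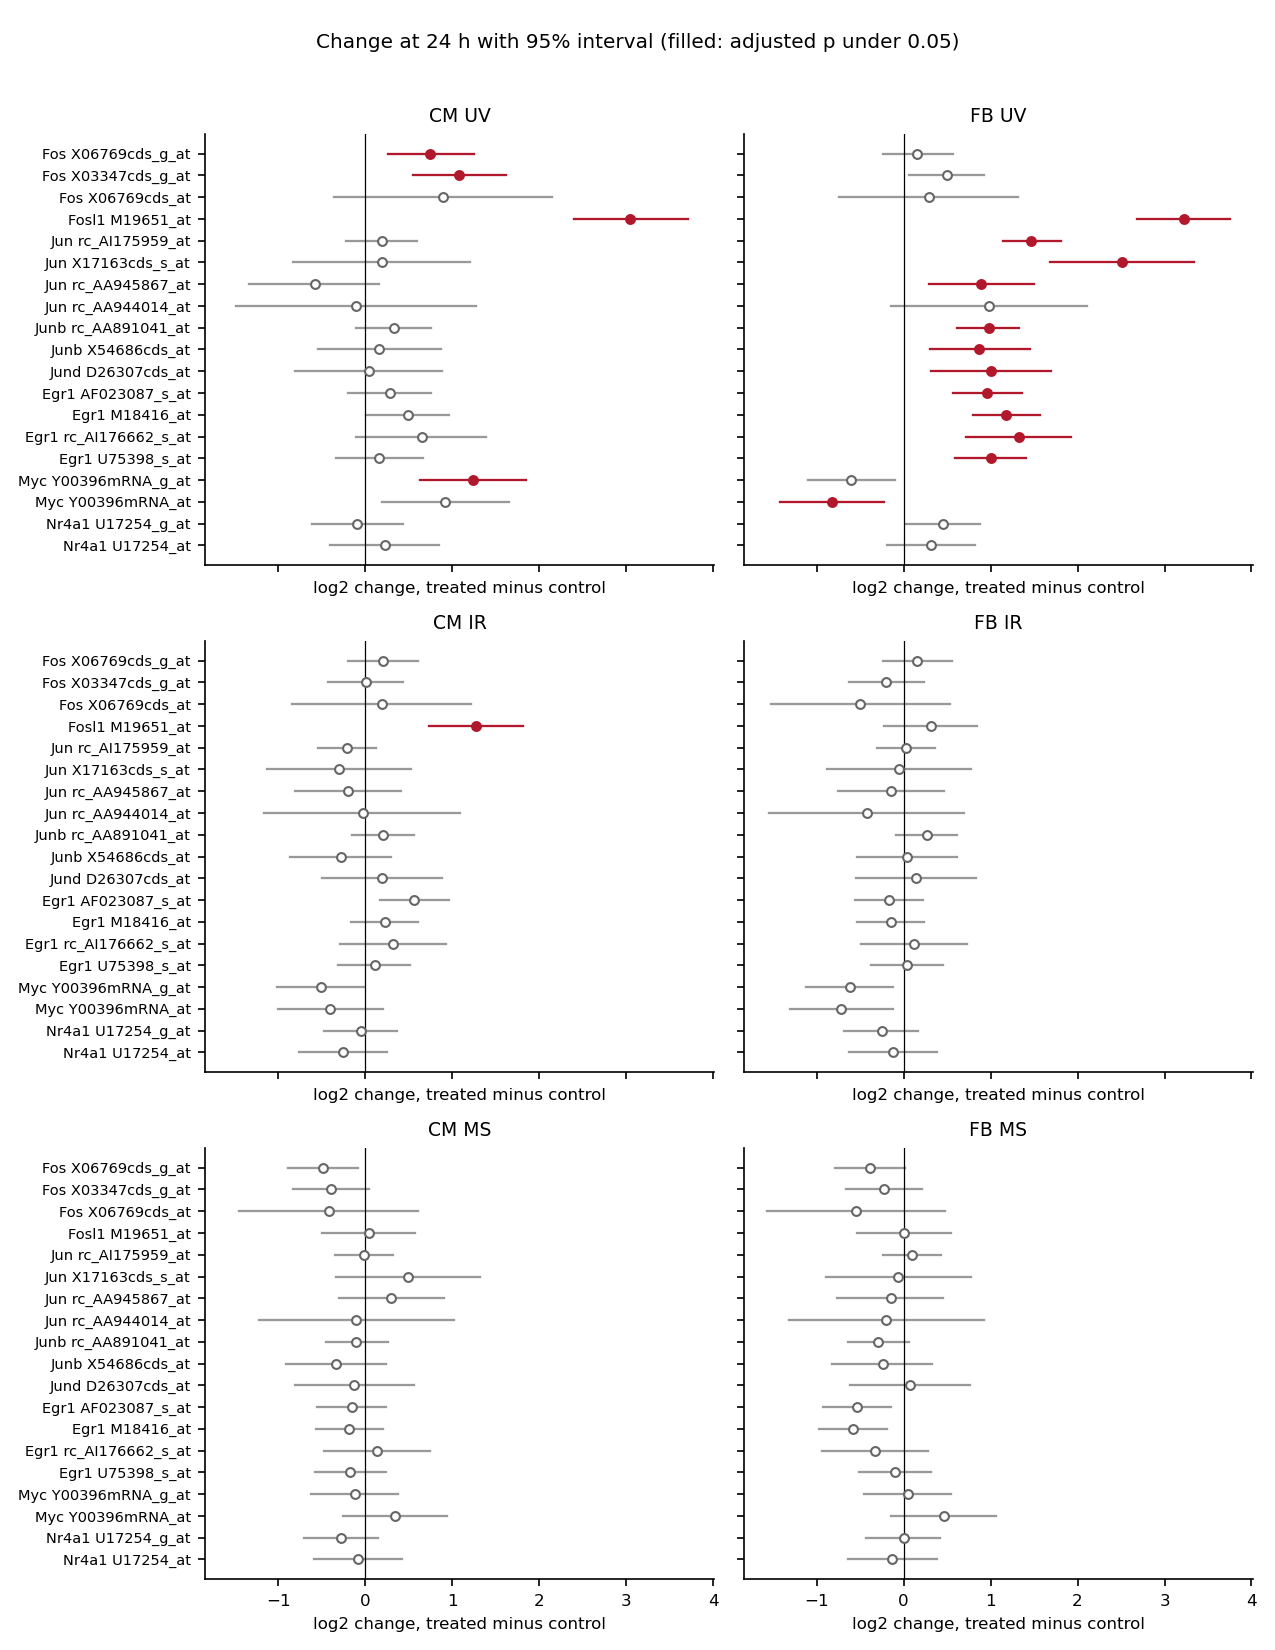
Log2 change at 24 h, treated minus control, with its 95% interval, for the 19 probe-sets in the 6 comparisons, filled where the adjusted p is under 0.05. After UV, 11 probe-sets are higher and 1 lower in FB and 4 higher in CM, after IR only Fosl1 in CM is called, and after MS none is.

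In CM-enriched fractions Fosl1, Fos and Myc rose after UV. Of the 19 probe-sets, 4 were higher and none lower (21.1%, where 16.8% of all probe-sets were called with 8.62% higher and 8.16% lower), and the median change was 0.28, beside 0 for all probe-sets. By gene, Jun, Junb, Jund, Egr1 and Nr4a1 did not pass (10.2% of all genes were higher and 9.21% lower). Treated and control arrays did not overlap for 9 probe-sets that were higher (16.6% of all probe-sets) and 1 that was lower (15.3%).

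Fosl1 had 52.3, 63.8 and 28.1 units on UV-treated CM arrays and 7.02 and 6.88 on controls, a change of 3.05 (SE 0.30, adjusted p = 3.85e-05). As in fibroblasts, every treated array was above controls that lay at or just over the floor, and with the higher floor the change was 1.24 (adjusted p = 0.00145). Fos X03347cds_g_at had 312, 388 and 339 units against 174 and 155, with no overlap and a rise of 1.08 (adjusted p = 0.00937). Fos X06769cds_g_at had 505, 710 and 584 units against 381 and 331, a rise of 0.75 (adjusted p = 0.0396). The third Fos probe-set changed by 0.89 with a wide SE of 0.58 and was not called. Myc Y00396mRNA_g_at had 92.3, 111 and 112 units after UV against 39.9 and 46.0, a rise of 1.24 (SE 0.28, adjusted p = 0.00978), and Y00396mRNA_at had 80.7, 83.1 and 98.4 against 48.2 and 38.8 (0.92, adjusted p = 0.0827).

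No probe-set of Jun, Junb or Jund was called in CM after UV. Jun rc_AI175959_at had 503, 505 and 422 units on UV-treated CM arrays and 423 and 463 on controls, with overlapping groups and a change of 0.19 (95% interval -0.22 to 0.60). Jun rc_AA945867_at went the other way, with 84.1 to 91.1 units against 115 to 144 and no overlap. It was lower in both pairs (-0.71 and -0.45), but not called. X17163cds_s_at changed by 0.35 and 0.02 in these pairs, and rc_AA944014_at by -0.19 and -0.02. Junb rc_AA891041_at had 310 to 475 units against 274 to 283, with no overlap and a change of 0.33 (-0.11 to 0.76), and Jund changed by 0.04 (-0.81 to 0.88). Egr1 AF023087_s_at had 711, 988 and 1130 units against 800 and 597, which overlapped (0.28, -0.20 to 0.76). Egr1 M18416_at had 267 to 291 units against 192 to 200 (0.49, 0.01 to 0.96, adjusted p = 0.16) and rc_AI176662_s_at 95.2 to 138 against 72.8 to 73.7 (0.65, -0.10 to 1.39, adjusted p = 0.248). These did not overlap, but neither was called. Without experiment 2 the changes of Jund and Egr1 AF023087_s_at were below 0.

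Only 2 pairs of arrays carry this comparison. With only the 5 CM UV arrays in the fit none of the 19 was called, and without the experiment block only Myc Y00396mRNA_g_at was. Without experiment 2 only Fosl1 was called, and Myc Y00396mRNA_g_at also lost its call without experiment 1 (adjusted p = 0.0846). Either fit leaves 1 pair, which is then assumed to vary like the other groups. Fibroblast markers were called lower for 3 of 10 genes here (summed level 5964 to 10917 units treated and 8675 to 14991 control), myocyte markers for 2 of 11, smooth muscle markers for 2 of 4 (Acta2 and Tagln, 3231 to 3557 and 4765 to 5186) and macrophage and leukocyte markers for 1 of 6, and whether this bears on the changes was not tested.

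Whether the populations differed in their response was tested directly. Population and handling cannot be told apart in this contrast. CM and FB were kept in different sera, and for UV and IR only the CM were elutriated between treatment and RNA isolation. For UV, 4 of the 19 probe-sets differed between CM and FB (21.1%, against 6.35% of all probe-sets, 3.63% higher and 2.72% lower). The response of Jun was smaller in CM than in FB, by -1.28 for rc_AI175959_at (0.19 in CM and 1.47 in FB, SE of the difference 0.24, adjusted p = 0.00921) and by -2.32 for X17163cds_s_at (0.19 in CM and 2.51 in FB, SE 0.60, adjusted p = 0.0409). The responses of Myc had opposite signs, with a difference of 1.84 for Y00396mRNA_g_at (1.24 in CM and -0.60 in FB, SE 0.36, adjusted p = 0.0111) and of 1.74 for Y00396mRNA_at (0.92 in CM and -0.82 in FB, SE 0.43, adjusted p = 0.0341). The responses of Fosl1, 3.05 in CM and 3.22 in FB, were not called different, with an interval of the difference of -1.01 to 0.69. Egr1 did not pass either, with differences of -0.84 to -0.68. For IR and MS no probe-set of the 8 genes differed between CM and FB (0.0686% and 0% of all probe-sets), also without experiment 3 of FB IR, with 2 of 19 at an unadjusted p under 0.05 for IR (8.66% of all) and 0 of 19 for MS (4.18% of all). Without CM UV experiment 1, which leaves 1 CM pair, only Jun rc_AI175959_at was called, Jun X17163cds_s_at and Myc Y00396mRNA_at were each lost in 4 of the 5 fits that left out an experiment, and with only the UV arrays in the fit none was.

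Few of these genes were called at 24 h after IR. In CM-enriched fractions 1 of 19 probe-sets was called (5.26%, against 0.732% of all), which was Fosl1. It had 26.1, 8.5 and 23.9 units after IR against 6.88, 6.88 and 8.01 in controls, so that every treated array was above every control. Of the 19, 2 were higher without overlap (4.35% of all probe-sets) and 1 was lower (4.11%). The change of Fosl1 was 1.27 (SE 0.25, adjusted p = 0.0386), with 1.92, 0.31 and 1.58 in the 3 experiments. This SE is pooled over all groups, and FB MS, with every array at the floor, brings no spread into it. The SE and the call may thus be too confident for CM IR. The third treated array is the one with the high 3′ to 5′ ratios, whose part in the call was not tested beyond leaving out its experiment. The second treated array was close to the controls, and leaving out experiment 1 or 3 ended the call (adjusted p = 0.2 and 0.231). The change was 0.04 with the higher floor, 0.31 with array lot as a further block and 1.11 with scan (adjusted p = 0.233). Of the CM IR arrays, 1 lot held only treated arrays 1 and 3, and 1 scan batch only treated array 3. Lot is thus confounded with treatment, and its block leaves the change to experiment 2. The scan block leaves it to experiments 1 and 2, as does leaving out experiment 3. Egr1 AF023087_s_at had 1190, 1050 and 2510 units against 765, 934 and 1360, higher in each of the 3 experiments, but not called (0.56, adjusted p = 0.244). The value of 2510 is from that same array. Both Myc probe-sets had lower means, at -0.51 and -0.40, and were not called.

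In fibroblasts limma called none of the 19 after IR (0.0801% of all probe-sets), with or without experiment 3, and 2 of 19 had an unadjusted p under 0.05 (6.85% of all), both of Myc. Myc Y00396mRNA_g_at had 72.0, 56.2 and 98.5 units on irradiated and 107, 108 and 126 on control arrays, with no overlap, at a change of -0.62 (adjusted p = 0.615), or -0.75 without experiment 3. It was the 1 of the 19 that was lower without overlap (2.2% of all probe-sets), and 0 were higher (2.39%). Fosl1 had 6.88, 8.71 and 135 units against 6.88, 6.88 and 89.9, so that the spread between experiments was far larger than the difference within them (0.31, adjusted p = 0.925, and 0.17 without experiment 3).

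Cyclic stretch of 24 h gave no call in CM-enriched cultures or in fibroblasts, where 0% of all probe-sets were called in either. An unadjusted p under 0.05 was seen for 1 of 19 probe-sets in CM (4.74% of all) and 2 of 19 in FB (5.35% of all). The first was Fos X06769cds_g_at, with 353, 464 and 324 units on stretched and 351, 836 and 494 on control CM arrays (-0.48, adjusted p = 1). The others were of Egr1: AF023087_s_at had 1240, 854 and 748 units on stretched and 2260, 1040 and 1030 on control fibroblasts, lower in each of the 3 experiments by a mean of 0.54, but not called (adjusted p = 0.857). Control array 1 of that set was also the highest FB MS control for Junb rc_AA891041_at (485 units, against 198 and 238) and Fos X06769cds_g_at (461, against 169 and 222). Fosl1 was at the floor on all 6 FB MS arrays and at 6.88 to 7.65 units on the CM MS arrays.

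UV and IR were set against each other within each population. In FB, 6 of 19 probe-sets responded more to UV than to IR and none less (31.6%, against 14.4% of all): Fosl1 by 2.91 (SE 0.35, adjusted p = 0.000152), Jun by 1.44 (rc_AI175959_at, adjusted p = 0.000719) and 2.56 (X17163cds_s_at, adjusted p = 0.00652), and Egr1 by 0.96 to 1.34 in 3 probe-sets (adjusted p = 0.00331 to 0.0299). Without FB IR experiment 3 there were 7: Egr1 U75398_s_at was lost (adjusted p = 0.0676), and Jun rc_AA945867_at (1.54, adjusted p = 0.00781) and Fos X06769cds_at (1.73, adjusted p = 0.0313) were gained. That call of U75398_s_at was lost in 5 of the 6 fits that left out an experiment, and without the experiment block none of the 19 passed. In CM, 2 of 19 responded more to UV (10.5%, against 9.02% of all), Fosl1 by 1.78 (SE 0.39, adjusted p = 0.0133) and Myc Y00396mRNA_g_at by 1.75 (SE 0.36, adjusted p = 0.0105). Neither was called without CM UV experiment 2, which leaves 1 CM UV pair. Each radiation was given at 1 dose.

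In the control cultures of the UV and IR experiments Jun passed by gene as higher in CM than in FB. In the MS experiments only rc_AI175959_at was called, so that Jun did not pass by gene there. Over all controls, Jun rc_AI175959_at had 203 to 574 units in CM (median 369.5, n = 8) and 71.5 to 167 in FB (median 111, n = 9), with no overlap. In the UV experiments it was 423 and 463 units in CM against 111, 105 and 116 in FB, a difference of 2.00 (SE 0.35, adjusted p = 0.00153), in the IR experiments 2.07 (adjusted p = 0.000489) and in the MS experiments 1.18 (adjusted p = 0.0194). X17163cds_s_at and rc_AA945867_at were higher in CM by 2.64 and 2.28 in the UV and by 1.86 and 2.16 in the IR experiments, all called, and by 1.09 and 0.93 in the MS experiments, not called. The last probe-set, rc_AA944014_at, was not called in any set (0.73 in the IR experiments, adjusted p = 0.422). In the IR experiments X17163cds_s_at lost its call in 5 of the 6 fits that left out an experiment. The sixth left out FB IR experiment 3, which gave 2.54 for it (adjusted p = 0.00104), 2.43 for rc_AI175959_at and 2.12 for rc_AA945867_at. The UV controls of CM thus lay above the UV-treated fibroblasts, which had 298 to 327 units of rc_AI175959_at. This contrast and the smaller UV response of Jun in CM share their control arrays and are not independent.

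Of the 19 probe-sets, 5 were higher and 2 lower in CM than in FB controls in the UV experiments (22.5% of all probe-sets called), 6 and 1 in the IR experiments (25.2% of all) and 3 and 0 in the MS experiments (22.5% of all). Myc was lower in CM controls in the UV experiments, with 39.9 and 46.0 units in CM against 103, 121 and 124 in FB (Y00396mRNA_g_at, -1.43, SE 0.25, adjusted p = 0.00137), and in the IR experiments for Y00396mRNA_at (-1.11, adjusted p = 0.0135, and -1.15, adjusted p = 0.0244, without FB IR experiment 3). In the MS experiments the Myc probe-sets differed by -0.04 and 0.04. Controls of CM IR had 64.8 to 92.6 units of Y00396mRNA_g_at and those of CM MS 53.2 to 86.7, above the CM UV controls. The rise of Myc in CM after UV and its population difference after UV share these CM UV controls, and the results are not independent. The differences of Nr4a1 were above 0 in all 3 sets, at 0.29 to 0.96 over both probe-sets, with 4 of 6 values called, the clearest being 117, 154 and 172 units in CM against 73.6, 91.1 and 62.7 in FB on MS plates (U17254_g_at, adjusted p = 0.0045). Fos was higher in CM in the IR experiments, with 405, 393 and 554 units in CM against 163, 126 and 144 in FB (X06769cds_g_at, 1.63, adjusted p = 0.014), but not in the UV experiments, where FB controls ranged from 234 to 630 units and the difference was -0.21. Jund was called in the UV experiments, with 126 and 131 units in CM against 15.4, 11.5 and 45.8 in FB (2.67, adjusted p = 0.0105), a call that was lost without either of the CM arrays. Its difference was 1.26 in the MS and -0.52 in the IR experiments (-0.15 without FB IR experiment 3), neither called. Whether Fos or Jund differed between the sets of experiments was not tested.

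**Figure D4:**
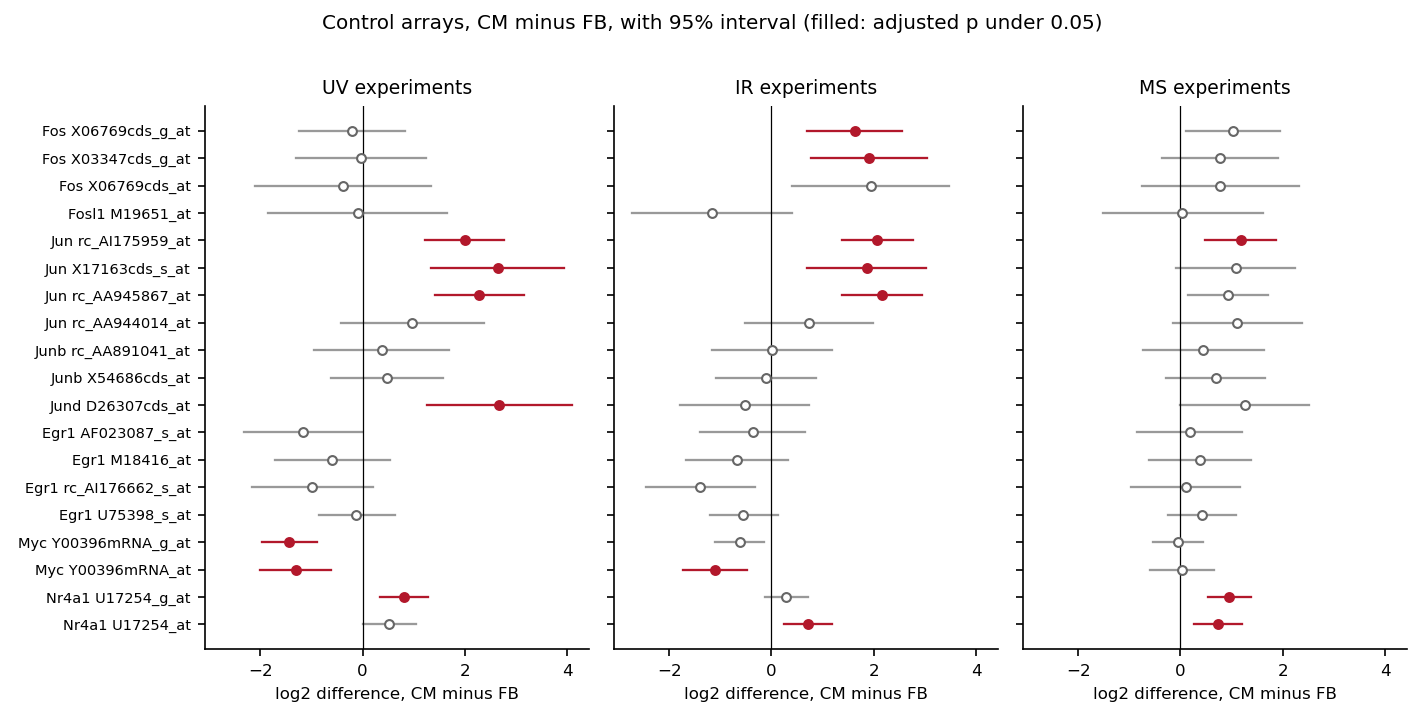
Log2 difference between CM and FB control arrays, with its 95% interval, for the 19 probe-sets in the UV, IR and MS experiments, filled where the adjusted p is under 0.05. Jun lies right of 0 in all 3 panels, from 0.73 to 2.64, Myc lies left of 0 in the UV and IR panels, and Junb and Egr1 have no filled point.

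Junb and Egr1 did not pass between the populations in any set, with Egr1 differences from -1.39 to 0.42. The lowest, of rc_AI176662_s_at in the IR experiments, was -0.76 without FB IR experiment 3, and that of Egr1 AF023087_s_at there was -0.37 with and 0.22 without it. Without FB IR experiment 3 the count in the IR experiments was 6 instead of 7, with Fos X03347cds_g_at lost (adjusted p = 0.0586), and without CM IR experiment 3 it was 3. In the MS experiments 1 of the 3 calls was left without CM MS or FB MS experiment 3. Population and handling cannot be told apart in any of the 3 sets: fibroblasts were subcultured in foetal bovine serum and CM kept in horse serum, and for UV and IR the CM were also elutriated. The CM controls of the MS experiments had a higher fibroblast marker sum than those of UV and IR, and its part in the differences was not tested. In the IR experiments the scale of the deposited values also differed between CM and FB, and in the UV experiments it differed between the CM controls.

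Other genes around these factors were followed through lists, counted by gene, where 13.9% of all genes were higher and 13% lower in FB after UV, and 10.2% and 9.21% in CM. Among 6 other AP-1 and related bZIP factors on the array, Atf3, a stress-induced partner of Jun, rose in FB after UV by 1.11 (SE 0.14, adjusted p = 9.96e-05) and the repressor Jdp2 fell by 1.1 (adjusted p = 0.0325). In CM Fosl2, a close relative of Fosl1, rose by 1.91 (adjusted p = 0.0257), and the list medians were 0.09 in FB and 0.13 in CM. Of 20 other immediate early genes, 6 rose and none fell in FB after UV, with a median of 0.24 beside 0.01 for all genes. They included Egr2, a relative of Egr1 (2.79, adjusted p = 8.75e-06), and Dusp6 and Dusp5, phosphatases of the ERK kinases (2.25 and 1.23). In CM 3 of the 20 rose and 4 fell, with a median of -0.01, among them Klf10 (1.35), Homer1 (-1.91) and Ier3 (-1.07). Of 9 upstream kinases and factors, 2 rose in FB, Crem (1.71) and Creb1 (0.64), both of which bind CRE sites, and none passed in CM.

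Of 14 textbook AP-1 targets, 5 rose in FB after UV and none fell, with a median of 0.30: the protease inhibitor Timp1 (1.21, adjusted p = 1.33e-06), the cytokine Il6 (2.68) and the urokinase receptor Plaur (1.83) had the smallest p. In CM 3 of the 14 rose, with a median of 0.33, of which Hmox1, which degrades heme, rose by 1.80 (adjusted p = 2.93e-05) and Timp1 by 0.70. After IR 1 of the 14 was higher, Sprr1a in CM (2.56, adjusted p = 4e-04), where 0.359% of all genes were. The lists were chosen with earlier results of these data known, so that this count is not a test of AP-1 targets. Of 13 Myc partners and targets, 8 rose and none fell in FB after UV, where Myc itself was lower, with a median of 0.39. They included Cad of pyrimidine synthesis (3.31, adjusted p = 0.000716), the chaperonin Hspe1 (0.26) and the cap-binding protein Eif4e (0.44). In CM, where Myc was higher, 4 rose and 2 fell, with Ncl (1.07) and Odc1 (0.89) higher and Hspe1 lower (-0.42). Of 6 cofactors and relatives of Egr1 and Nr4a1, 1 rose in CM, Nr4a2 (0.69, adjusted p = 0.0175), and none passed in FB. No other gene of these lists passed after IR, and none after MS.

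The genes whose changes were most like those of each member were sought over the 17 treated and control pairs, among probe-sets of other genes with a mean level above the median of all probe-sets. For Fosl1 these were Irf7 (Pearson r = 0.94), Hprt1 and Cgrrf1 (0.93 each), for Jun Dusp6 (0.92), Psmc4 (0.90) and Fasn (0.89), and for Myc Nme2 (0.87), Serp1 (0.79) and Tspo (0.78). Junb was most like Egr1 M18416_at and Nsfl1c (0.87 each), and Nsfl1c also led for Egr1 AF023087_s_at, with Cstb (0.86 each). The highest values for Fos (Hyal2, Gadd45a and Klf4, 0.79 each), Jund (Mapk14, 0.79) and Nr4a1 (Psmb2, 0.80) were lower. Each is the top of 3689 to 3693 candidates, and the pairs span 3 stressors and both populations. The correlations are a description and not a test.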

How the data were processed

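RNA of neonatal rat cardiac cells was hybridised to Affymetrix rat expression arrays, 35 in all, which here give 8740 probe-sets after 59 control probe-sets of 8799 were left out. The values used are intensities, as deposited by the authors, 1 per probe-set and array. Trimmed means were 200.3 to 200.4 for 26 of the arrays but 1001.5 to 1001.7 for the other 9, so that the scales differed. The 9 were all CM IR arrays, CM UV control 2 and CM UV treated 2 and 3. The scale is thus confounded with population in the control levels of the IR experiments. The methods of the study name a GeneChip scanner with its GeneChip software, then gcrma and VSN for its own analysis, and which program summarised the deposited linear values is not given in the sources used here. Files of scan records and array reports were used only for scan, lot and RNA quality. Each array was scaled to a common 75th percentile, values under the 20th percentile of all (6.88) were set to it, and quantile normalization was applied to log2 values. On each array 14.5% to 24.7% of values lay at this floor. The number of arrays, not a read depth, limits the precision.

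A linear model was fitted to all 35 arrays in R 4.3.3 (limma 3.58.1, with a variance trend in eBayes, and statmod 1.5.0). Its block was the numbered experiment of each population and stressor, which left 11 residual degrees of freedom. Control levels came from a fit of group means on the 17 control arrays. Tests were two-sided, with Benjamini-Hochberg adjustment over 8740 probe-sets and a threshold of 0.05. A gene passed when at least 50% of its probe-sets did in 1 direction. The paper reports 3 independent experiments for each stressor. Nothing in the labels says that arrays of a group came from separate animals, so that p-values measure the spread between these samples. The experiment numbers were taken from the sample titles. Most arrays with the same number deviated together from their group means, with a correlation of 0.06 to 0.80 over 17 pairs and over 0.1 in 14. In FB UV pair 3 the correlation was 0.07, below the 0.13 with a treated array of another number. In CM MS pair 2 it was 0.06, beside 0.05, so that the pairing is not borne out for these pairs. The methods were tested on simulated data with known changes.

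Gene names came from the platform annotation, with 7006 probe-sets of 1 symbol, 308 of several and 1426 of none, and 6985 of the first were found in the RefSeq gene table. All probe-sets of the 8 genes are reported. Of each list of other genes at most the 3 called probe-sets with the smallest adjusted p were named, and the genes most alike by the highest correlations. The genes and lists were chosen with earlier results of these data known, and the motif TGCGTCA was added after the promoter sequences were seen. Alternatives were the block, scaling, pseudocount, floor, dim probe-sets, variance trend, threshold, arrays in the fit, scan and lot as blocks, and leaving out each experiment.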

Additional observations from a re-analysis of the deposited data

Results flagged for a closer look

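These differences were picked out because the responses of the populations, or to the 2 kinds of radiation, differed by a test of the difference itself. Between CM and FB after UV, the response of Jun differed by -1.28 (rc_AI175959_at) and -2.32 (X17163cds_s_at) and that of Myc by 1.84 (Y00396mRNA_g_at) and 1.74 (Y00396mRNA_at), all log2 and CM minus FB. Between UV and IR in CM, Fosl1 differed by 1.78 and Myc by 1.75 (Y00396mRNA_g_at), UV minus IR. Between UV and IR in FB, Fosl1 differed by 2.91, Jun by 1.44 (rc_AI175959_at) and 2.56 (X17163cds_s_at), and Egr1 by 1.14 (AF023087_s_at), 1.34 (M18416_at) and 0.96 (U75398_s_at). The comparisons of UV with IR in FB include experiment 3 of FB IR, without which the value for Fosl1 was 3.05 and for Jun rc_AI175959_at 1.69.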

How the results depend on the processing

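Of the 46 called values of the 19 probe-sets none turned its direction under any alternative run, while 84 of the 220 that were not called did under at least 1, such as Fos X06769cds_g_at in FB UV, 0.16 and -0.04 without FB UV experiment 1, and Egr1 AF023087_s_at in CM UV, 0.28 and -0.17 without CM UV experiment 2. Of 850 alternative values of single probe-sets, 653 stayed on their side of the threshold, 156 lost their call and 41 gained one. Counts of called members are given against those of the report: 4 for CM UV, 12 for FB UV, 1 for CM IR, 4 for the population difference after UV, 2 and 6 for UV minus IR in CM and FB, and 7, 7 and 3 for control levels in the UV, IR and MS experiments. Without the replicate block they were 1 for CM UV, 5 for FB UV, 0 for CM IR, 1 for the population difference, and 1 and 0 for UV minus IR in CM and FB. With a random replicate block they were 0 for CM IR, 2 for the population difference and 3 for UV minus IR in FB. With only the arrays of the groups compared they were 0 for CM UV, 2 for FB UV, 0 for CM IR, 0 for the population difference and 0 for UV minus IR in CM. At the stricter threshold of the study, 0.005, they were 1 for CM UV, 0 for CM IR, 0 for the population difference, 0 and 3 for UV minus IR in CM and FB, and 3, 2 and 1 for the control levels. The single CM IR call was also 0 with scaling only, with a pseudocount, with the higher floor, and with scan or lot as a block, and with dim probe-sets left out, where Fosl1 itself was removed, and UV minus IR in CM was 1 with lot as a block. Scan and lot set only treated CM IR arrays apart, so that these blocks are confounded with treatment. Leaving out 1 experiment gave 1 to 3 for CM UV, 8 to 11 for FB UV, 0 to 1 for CM IR, 1 to 4 for the population difference, 0 to 3 and 5 to 8 for UV minus IR in CM and FB, and 5 to 7, 3 to 7 and 1 to 3 for the control levels. The cause was not tested. Dim values, such as Fosl1 in controls, lie at the floor, so that the size of its change depends on the floor. Groups with every array at the floor also add no spread to its pooled SE.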
